A study of Mus musculus with 12 samples.

Results

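The 9 genes described here are Egr1, Fos, Fosb, Fosl2, Jun, Junb, Nr4a1, Nr4a2 and Atf3, immediate early transcription factors, read at 2 h post-hCG in mouse granulosa cells. They were taken by symbol from the 35856 genes listed in either of the deposited tables, and all 9 were in both tables and passed the filter on low values in both cell types. RNA was sequenced from mural granulosa cells (MGCs), which line the follicle wall, and from cumulus cells, which surround the oocyte, with 3 libraries in each of 4 groups. The WT groups were C57/BL6 mice. The Sphk1/2gc-/- groups carried a germline deletion of Sphk1 (Sphk1-/-) together with Sphk2 fl/fl and the Fshr-Cre transgene, so that Sphk1 was to be absent from every cell and Sphk2 from cells in which the Fshr promoter had driven Cre. All groups received hCG, which acts on the LH receptor, and no group without hCG was analysed here, so the values are levels at 2 h and not responses to the hormone. The study's general methods describe young females primed with eCG, which stimulates follicle development, before hCG was given. They do not state this separately for these libraries. The study states in general that its experiments were repeated independently, but the animals behind each library are not given, and p-values measure the spread between these libraries. Values are FPKM, which correct the fragments of a gene for its length and for the depth of the library but not for its base composition, which moved with the values as described further on.

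Immediate early genes are transcribed within minutes of a signal, without new protein synthesis, and their products switch on later genes. In granulosa cells the LH receptor raises cAMP and thereby activates protein kinase A and CREB, and EGF-like factors released in the follicle activate EGFR and ERK, which act on SRF and its ETS partners. FOS and JUN proteins pair to form AP-1, in which a FOS protein needs a JUN partner to bind DNA whereas JUN proteins also pair with each other. EGR1 is a zinc finger protein, NR4A1 (Nur77) and NR4A2 (Nurr1) are orphan nuclear receptors, and ATF3 is a stress-induced factor of the ATF/CREB family.

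The depth and identity of the libraries were examined first. The tables gave 16100363 to 19761604 reads per library, and the smallest number of reads behind a value of these 9 genes was 51. WT cumulus library 3 listed 27498 genes above 0, against 18765 to 19259 in the other cumulus libraries. Sphk1/2gc-/- MGC library 3 had the lowest Ptgs2 of the MGC libraries, at 24.6 FPKM against 268 to 447 FPKM, and the lowest Star, at 47.1 FPKM against 395 to 1080 FPKM; both are targets of the LH receptor. Amh, a granulosa cell marker, was at 87.3 to 226 FPKM in MGCs and at 0.102 to 2.16 FPKM in cumulus cells, whereas Fshr was at 54.7 to 73.4 and 50.0 to 118 FPKM. Of 10 granulosa markers 7 were higher in WT MGCs by the limits given below, against 33.3% of all genes. The 1 lower marker was Hsd17b1, at 278 to 561 FPKM in WT MGCs against 1076 to 1198 FPKM in WT cumulus cells. Of all genes, 15.4% were lower. In MGCs, Sphk1 was at 1.68, 1.88 and 0.460 FPKM in WT against 0.432, 0.557 and 0.104 FPKM in Sphk1/2gc-/-. In cumulus cells it was at 0.0911, 0.0699 and 0.0954 FPKM in WT against 0.0778, 0.456 and 0.557 FPKM in those labelled Sphk1/2 knockout. These values are low, and the Sphk1 exons overlap the antisense gene Gm29292, whose reads cannot be told apart without strand. Sphk1 was thus not lower under the Sphk1/2 knockout label there, and the cumulus groups are those of the labels alone. Sphk2 was at 5.18 to 5.86 against 4.51 to 6.29 FPKM in MGCs, and at 0.403 to 0.602 against 0.434 to 0.752 FPKM in cumulus cells, over exons that include those left in place. The Sphk2 exons also overlap those of Dbp and Rpl18 on the other strand.

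The sequences just before the transcription starts of Nr4a1, Jun, Junb and Fos are printed because the first 3 of these genes differed most between the cell types and Fos differed in the other direction. RefSeq promoters on GRCm38.p6 were matched by symbol for 8 of the 9 genes, all but Egr1. Each line gives the 250 bases before the start, 5′ to 3′ on the strand of the gene, at chr15:101266596-101266845 (plus strand) for Nr4a1, chr4:95052223-95052472 (minus) for Jun, chr8:84978749-84978998 (minus) for Junb and chr12:85473640-85473889 (plus) for Fos. In GENCODE M21 (GRCm38) these windows belong to the genes at chr15:101254269-101274795, chr4:95049034-95052222, chr8:84974484-84978718 and chr12:85473890-85477273, in the same order, and the Nr4a1 window lies inside its gene. Capitals mark TGACG on either strand, the core of the cAMP response element that CREB and ATF proteins bind.
Nr4a1: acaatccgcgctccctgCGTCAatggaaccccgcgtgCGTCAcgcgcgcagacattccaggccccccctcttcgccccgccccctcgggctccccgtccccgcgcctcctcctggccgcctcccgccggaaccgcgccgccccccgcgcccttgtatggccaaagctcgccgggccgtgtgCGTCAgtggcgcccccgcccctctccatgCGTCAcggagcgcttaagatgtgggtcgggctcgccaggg
Jun: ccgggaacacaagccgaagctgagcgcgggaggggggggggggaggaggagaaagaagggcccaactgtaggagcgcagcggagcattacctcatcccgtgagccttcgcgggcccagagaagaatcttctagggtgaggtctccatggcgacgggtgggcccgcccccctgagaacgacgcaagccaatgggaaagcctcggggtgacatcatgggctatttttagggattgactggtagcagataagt
Junb: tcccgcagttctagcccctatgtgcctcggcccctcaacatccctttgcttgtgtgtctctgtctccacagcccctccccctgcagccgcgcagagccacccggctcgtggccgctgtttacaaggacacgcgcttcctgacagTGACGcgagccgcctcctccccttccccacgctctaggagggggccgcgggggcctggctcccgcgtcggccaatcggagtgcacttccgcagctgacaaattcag
Fos: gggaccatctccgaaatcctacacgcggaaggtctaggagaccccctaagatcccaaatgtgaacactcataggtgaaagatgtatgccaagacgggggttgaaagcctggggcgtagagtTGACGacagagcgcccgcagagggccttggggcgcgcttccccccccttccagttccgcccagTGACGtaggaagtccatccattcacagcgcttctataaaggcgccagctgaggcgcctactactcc
TGACG stood in the windows of 6 of the 8 genes (Nr4a1, Nr4a2, Fos, Fosb, Junb and Atf3), against 17.8% of all 32851 promoters. Nr4a1 and Nr4a2 each held 4 copies, and 0.137% of all promoters held 4 or more. In Nr4a1 they ended 229, 209, 65 and 36 bases before the start, and in Fos the copies ended 125 and 62 bases before it. Jun and Fosl2 had no match to these letters in this window. GCGNGGGCG, the EGR motif, stood in the windows of Nr4a1, Nr4a2, Fosb and Fosl2, against 4.70% of all promoters. The full element TGACGTCA, which holds TGACG on both strands, was in none of the 8 windows and in 1.55% of all promoters. The AP-1 motif TGANTCA (6.75% of all promoters), the NR4A motif AAAGGTCA (1.34%) and the CArG box of SRF (1.47%) were in none of the 8 windows either. TATAA on the strand of the gene stood in the window of Fos, ending 29 bases before the start, and in 16.0% of all promoters. These matches are descriptions of letters and are not evidence of binding. Sites beyond these 250 bases, and those of Egr1, were not searched, so a missing match does not mean that a gene lacks the site.

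**Figure D1:**
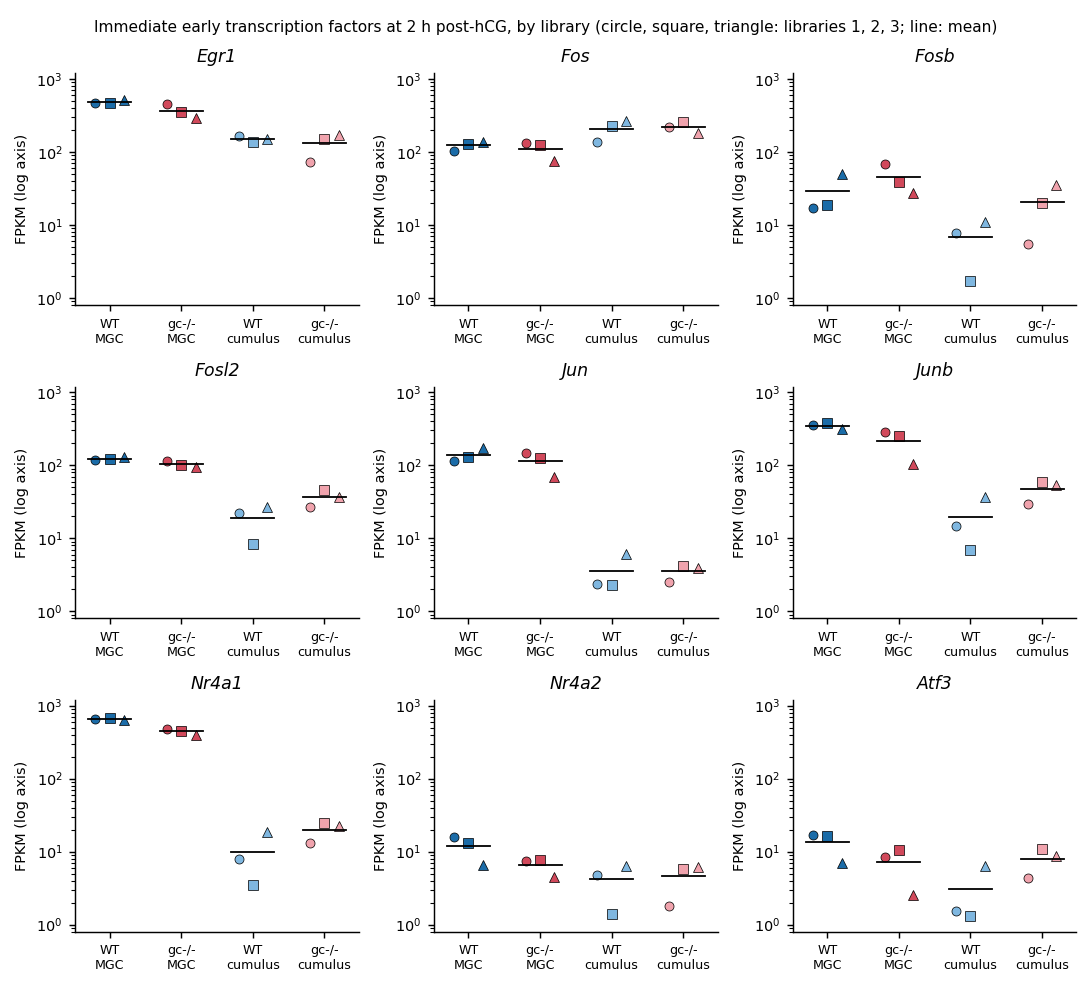
FPKM of the 9 genes (log axis) in the 12 libraries, with circles, squares and triangles for libraries 1, 2 and 3 of each group and a line at the mean of 3; gc-/- stands for Sphk1/2gc-/-. Every MGC library lies above every cumulus library for Nr4a1, Jun and Junb, least so for Junb in Sphk1/2gc-/- (105 against 58.2 FPKM), whereas Fos is not higher in MGCs.

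The first question was how the 9 genes are set in MGCs and cumulus cells after the same hormone. In WT mice, 8 of the 9 genes were higher in MGCs and 0 were lower by the limits used throughout, a limma p of at most 0.05 after Benjamini-Hochberg adjustment and at least a 2-fold change. Of all 15869 genes tested, 33.3% passed as higher and 15.4% as lower, 48.7% in all, so a difference between these cell types was common. The libraries of the cell types did not overlap for these 8 genes, and 55.7% of all genes were separated as higher and 26.5% as lower. The median log2 difference (MGCs minus cumulus cells) of the 9 genes was 2.01, against 0.54 for all genes. In these bulk samples, fewer cells of a type and less RNA per cell cannot be told apart, nor can the cell type be told apart from the table, as each cell type has its own.

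The orphan receptor Nr4a1 had the highest level of the 9 genes in WT MGCs. Libraries 1 to 3 of WT MGCs had 660, 669 and 645 FPKM, against 7.88, 3.44 and 18.5 FPKM in WT cumulus cells. The lowest MGC library was thus far above the highest cumulus library, and the difference was 6.17 on the log2(FPKM + 1) scale (SE 0.408, limma adjusted p = 6.33e-08). Its relative Nr4a2 was much lower, at 15.8, 13.0 and 6.53 FPKM in MGCs and 4.82, 1.38 and 6.26 FPKM in cumulus cells. These groups were separated only narrowly, by MGC library 3 and cumulus library 3 (log2 difference 1.38, SE 0.466, limma adjusted p = 0.0172). The third member of the family, Nr4a3, was at 23.3, 21.3 and 15.3 FPKM in MGCs and 1.70, 0.911 and 1.36 FPKM in cumulus cells (log2 difference 3.17, limma adjusted p = 1.63e-06). Nr4a1 gave 94.4% to 96.7% of the summed FPKM of the NR4A family in WT MGCs and 54.7% to 70.8% in WT cumulus cells.

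The JUN genes differed nearly as much. Jun, whose exons overlap the antisense gene Junos, had 114, 129 and 172 FPKM in WT MGCs against 2.34, 2.29 and 6.16 FPKM in WT cumulus cells (log2 difference 5.00, SE 0.336, limma adjusted p = 7.13e-08). Junb, whose exons overlap those of Prdx2 on the other strand, was at 356, 374 and 314 FPKM in MGCs and at 14.8, 6.96 and 36.4 FPKM in cumulus cells (log2 difference 4.38, SE 0.503, limma adjusted p = 7.09e-06). For both genes every MGC library lay above every cumulus library. Jund, the more constitutive JUN gene, was at 14.2 to 17.1 FPKM in MGCs and at 0.333 to 0.745 FPKM in cumulus cells (log2 difference 3.41), and overlaps the antisense gene Gm11175.

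The FOS genes did not share 1 pattern. Fosl2 (Fra-2), at 119, 121 and 129 FPKM in WT MGCs against 22.1, 8.27 and 27.2 FPKM in WT cumulus cells, was higher in MGCs (log2 difference 2.77, SE 0.333, limma adjusted p = 1.07e-05). Fosb was at 17.2, 19.1 and 50.6 FPKM in MGCs and at 7.88, 1.69 and 11.0 FPKM in cumulus cells (log2 difference 2.01, SE 0.684, limma adjusted p = 0.0179). Its groups did not overlap, although its MGC libraries themselves spread over more than a doubling. Fos was the 1 gene of the 9 with its mean higher in cumulus cells. It was at 102, 130 and 138 FPKM in MGCs and at 136, 224 and 266 FPKM in cumulus cells, with cumulus library 1 inside the range of the MGCs. The log2 difference of −0.71 (SE 0.276, limma adjusted p = 0.0337) was short of the fold limit. Fosl1 (Fra-1), which overlaps Ccdc85b, was at 9.16, 8.17 and 3.37 FPKM in MGCs and 2.00, 2.25 and 5.30 FPKM in cumulus cells, with overlapping groups (log2 difference 0.91).

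Egr1 was at 471, 468 and 509 FPKM in WT MGCs against 165, 138 and 150 FPKM in WT cumulus cells. It was thus strongly expressed in both cell types and higher in MGCs (log2 difference 1.67, SE 0.275, limma adjusted p = 0.000145). Its relatives Egr2 and Egr3 were at 33.2 to 36.7 and 37.3 to 51.9 FPKM in MGCs and at 2.06 to 4.12 and 1.01 to 2.48 FPKM in cumulus cells (log2 differences 3.32 and 4.06). The corepressor Nab2, which binds EGR proteins, was at 34.7 to 37.9 against 2.57 to 4.99 FPKM, whereas Nab1 was at 24.1 to 29.4 against 35.2 to 51.7 FPKM and did not pass the fold limit (log2 difference −0.71). Atf3 was at 16.9, 16.3 and 6.99 FPKM in MGCs and 1.56, 1.32 and 6.45 FPKM in cumulus cells (log2 difference 1.94, SE 0.540, limma adjusted p = 0.00604). As for Nr4a2, MGC library 3 was barely above cumulus library 3.

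The order of the 9 genes therefore differed between the cell types. In WT MGCs the means fell from Nr4a1 (658 ± 12.2 FPKM, SD, n = 3) through Egr1 (483 ± 23.0) and Junb (348 ± 31.1) to Jun (138 ± 30.2), Fos (124 ± 18.8) and Fosl2 (123 ± 5.59), then to Fosb (28.9 ± 18.8), Atf3 (13.4 ± 5.56) and Nr4a2 (11.8 ± 4.77). Jun, Fos and Fosl2 overlapped as neighbours in this order, as did Atf3 and Nr4a2. In WT cumulus cells Fos led (209 ± 66.3 FPKM) and overlapped with Egr1 (151 ± 13.8), and both lay above the other 7 genes, from Junb (19.4 ± 15.2) and Fosl2 (19.2 ± 9.82) through Nr4a1 (9.94 ± 7.74) and Fosb (6.86 ± 4.74) to Nr4a2 (4.15 ± 2.50), Jun (3.59 ± 2.22) and Atf3 (3.11 ± 2.90). Each of these 7 overlapped with the next. With the trend of the values with G + C removed, as described further on, Nr4a1, Egr1 and Junb still led in WT MGCs and Fos, Egr1 and Junb in WT cumulus cells, where Jun and Nr4a2 changed places.

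**Figure D2:**
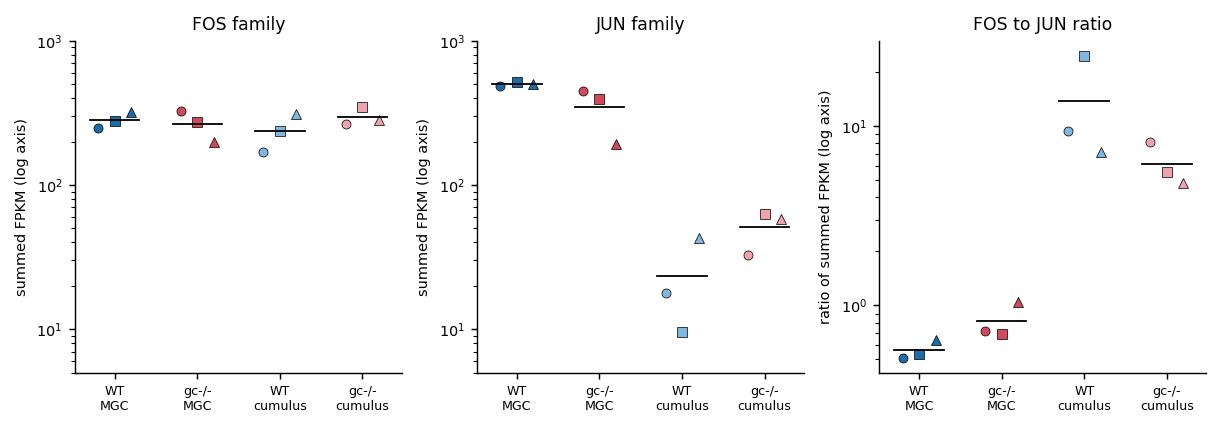
Summed FPKM of the FOS family (Fos, Fosb, Fosl1, Fosl2) and the JUN family (Jun, Junb, Jund) and the ratio of these sums, in each library (log axes, line: mean of 3). The FOS sums overlap between cell types, whereas all JUN sums are higher in MGCs.

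The partners of AP-1 were thus present in different proportions of mRNA. The summed FPKM of Fos, Fosb, Fosl1 and Fosl2 were 247, 279 and 321 in WT MGCs and 168, 236 and 310 in WT cumulus cells, which overlap. The sums of Jun, Junb and Jund were 484, 519 and 503 FPKM in WT MGCs and 17.9, 9.58 and 43.1 FPKM in WT cumulus cells. The FOS sum was 0.511, 0.536 and 0.639 times the JUN sum in WT MGCs and 9.38, 24.6 and 7.17 times in WT cumulus cells. In the Sphk1/2gc-/- libraries the ratio was 0.720, 0.696 and 1.04 for MGCs against 8.14, 5.51 and 4.81 for cumulus cells, so that it was above 1 in every cumulus library and in 1 MGC library. Fos gave 80.9% to 94.8% of the FOS sum in WT cumulus cells and 41.4% to 46.8% in WT MGCs. With the G + C trend removed the ratio was 0.492 to 0.596 in WT MGCs against 4.22 to 12.6 in WT cumulus cells, and 0.638 to 1.04 against 2.91 to 4.54 in Sphk1/2gc-/- mice. The size of the ratio in cumulus cells thus moved with this correction. These ratios are of mRNA and carry no test.

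The difference between the cell types moved with the base composition of genes. Over all genes in WT, the median log2 difference (MGCs minus cumulus cells) was −0.46 for genes with 30% to 35% G + C in their exons and 1.44 at 60% to 65%. The 9 genes have 47.9% (Nr4a2) to 62.6% (Junb). After the trend with G + C was removed within each library, Nr4a1 still differed by 5.29, Jun by 4.30, Junb by 3.22 and Fosl2 by 2.30 on the log2 scale, and these 4 genes passed in all 20 alternatives tried. Egr1 no longer passed (log2 difference 0.76, limma adjusted p = 0.0322, range over the alternatives 3.69e-06 to 0.0803), nor did Fosb (1.25, limma adjusted p = 0.123, range 0.00837 to 0.157). Fos then passed as lower in MGCs (−1.06, limma adjusted p = 0.00501, range 0.00109 to 0.609), as it also did when the libraries were centred on their medians (−1.51), a scaling that moved the median of all genes from 0.54 to −0.26. With that centring Egr1, Fosb, Nr4a2 and Atf3 did not pass. Single libraries bore on the lowest genes. Nr4a2 did not pass without WT MGC library 1 (log2 difference 1.14), WT MGC library 2 (1.27) or WT cumulus library 2 (0.90), and Fosb did not without WT MGC library 3 (1.53) or WT cumulus library 2 (1.36).

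**Figure D3:**
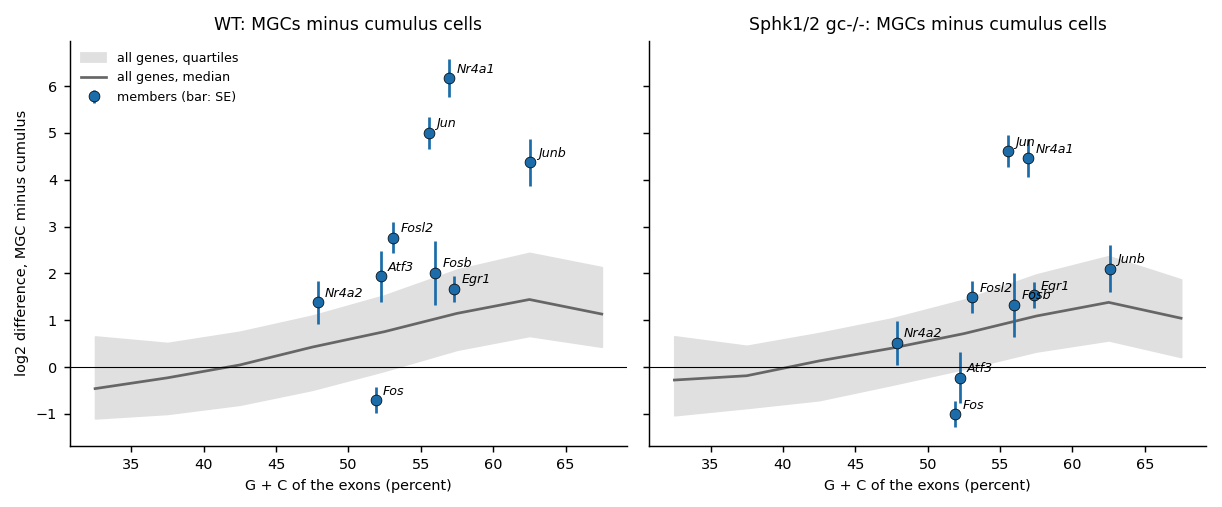
Log2 difference of FPKM + 1 between MGCs and cumulus cells against the G + C percentage of the exons, in WT (left) and Sphk1/2gc-/- mice (right); points are the 9 genes with limma's SE, the line and band are the median and quartiles of all genes in steps of 5%. Nr4a1, Jun and Junb lie furthest above the band in WT, and Fosl2, Atf3 and Nr4a2 also lie above it. Fosb is close to its upper edge and Egr1 within it in WT, and Fos lies below it in both genotypes.

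Markers of other cells also differed between the cell types, and their part in the result was not tested. Of 10 leukocyte markers 9 were higher in WT MGCs, with summed levels of 175 to 333 FPKM against 5.89 to 55.8 FPKM in WT cumulus cells. The defining marker Ptprc was low in both, at 0.580 to 1.22 FPKM in WT MGCs and 0.0213 to 0.0237 FPKM in WT cumulus cells. In the WT MGC sums S100a9 alone was at 90.9 to 139 FPKM. The 7 endothelial markers summed to 12.8 to 16.6 against 0.283 to 0.974 FPKM, and 4 of the 6 tested passed as higher. The 8 markers of theca and stroma summed to 172 to 326 against 16.8 to 59.5 FPKM, with 6 of 7 higher. The 8 oocyte markers summed to 36.0 to 91.9 FPKM in MGCs and to 3.89 to 7.17 FPKM in cumulus cells, with 7 of 8 higher. Heat shock and stress genes, which rise with Jun and Fos when tissue is dissociated, summed to 1651 to 2051 FPKM in WT MGCs against 3086 to 3315 FPKM in WT cumulus cells, with 3 of 14 higher in MGCs and 4 lower (median log2 difference −0.03).

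In the Sphk1/2gc-/- mice the same comparison gave 5 genes higher in MGCs and 1 lower, against 31.4% and 13.7% of all genes (45.1% in all). These 6 genes did not overlap between the cell types, and 52.0% of all genes were separated as higher and 21.9% as lower. Jun (log2 difference 4.61, limma adjusted p = 1.67e-07) and Nr4a1 (4.46, limma adjusted p = 1.13e-06) again led, followed by Junb (2.10), Egr1 (1.54) and Fosl2, at 115, 102 and 93.5 FPKM in MGCs against 27.1, 45.5 and 37.0 FPKM in cumulus cells (limma adjusted p = 0.00153). Fos was lower in MGCs here (log2 difference −1.01, limma adjusted p = 0.00577), at 134, 126 and 74.8 FPKM against 217, 261 and 182 FPKM in cumulus cells, without overlap. It fell short of the fold limit without Sphk1/2gc-/- MGC library 3 (−0.75) and without cumulus library 2 (−0.88), and with quantile normalization (−0.55, limma adjusted p = 0.0993, range over the alternatives 0.000279 to 0.0993). Fosb (1.33, limma adjusted p = 0.0966), Nr4a2 (0.52) and Atf3 (−0.23) did not pass. With the G + C trend removed, Egr1 (0.67, limma adjusted p = 0.0538, range over the alternatives 9.02e-06 to 0.116) and Junb (1.02, limma adjusted p = 0.102, range 0.000441 to 0.118) did not pass either. With median centring Fosl2 (0.68, limma adjusted p = 0.111, range 2.88e-05 to 0.111), Egr1 (0.72) and Junb (1.28) did not pass. Both genotypes were fitted with 1 spread over 12 libraries, and whether they differ is the test of the interaction given last.

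The genotypes were then compared within each cell type, to ask how these genes differ between the groups labelled Control and Sphk1/2 knockout. In cumulus cells, 0 of the 9 genes passed in either direction, against 4.19% of all 12205 genes tested as higher and 3.85% as lower (8.04% in all), and 4 of the 9 had an unadjusted p of 0.05 or less, against 38.2% of all genes. The log2 fold change (Sphk1/2gc-/- minus WT) was above 0 for 8 of the 9, with a median of 1.01 against −0.06 for all genes. The groups overlapped for all 9 genes, where 42.3% of all genes showed no overlap.

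**Figure D4:**
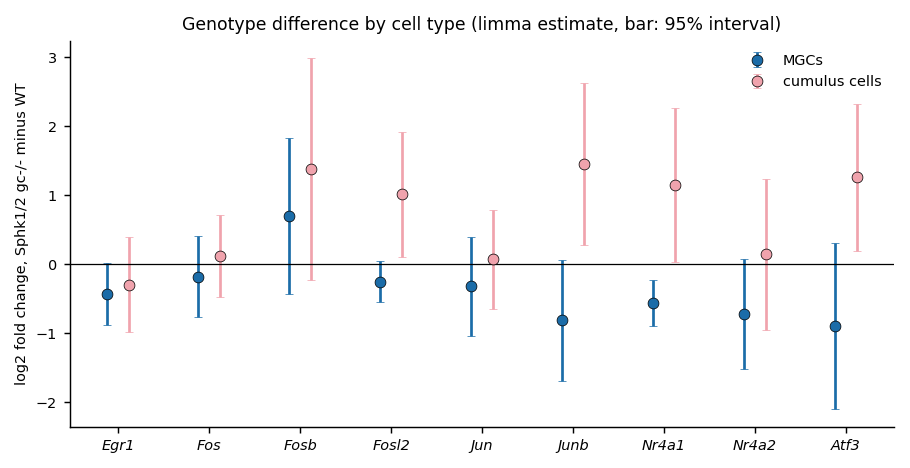
Log2 fold change of FPKM + 1 between Sphk1/2gc-/- and WT (limma estimate, bars: 95% interval) for the 9 genes in MGCs and cumulus cells, 3 libraries per group. The estimate is higher in cumulus cells than in MGCs for each gene, and the intervals are wide.

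Junb had the largest estimate in cumulus cells. It was at 14.8, 6.96 and 36.4 FPKM in WT against 29.5, 58.2 and 53.0 FPKM in those labelled Sphk1/2 knockout (log2 fold change 1.46, 95% interval 0.28 to 2.63, limma adjusted p = 0.0740). Fosb was at 7.88, 1.69 and 11.0 FPKM against 5.46, 20.2 and 35.8 FPKM (1.38, 95% interval −0.23 to 2.99, limma adjusted p = 0.188). Atf3 was at 1.56, 1.32 and 6.45 FPKM against 4.31, 10.8 and 8.76 FPKM (1.26, 95% interval 0.20 to 2.33, limma adjusted p = 0.0841). In these 3 genes WT library 3 lay above Sphk1/2gc-/- library 1, and for Fosb WT library 1 did as well.

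Nr4a1 was at 7.88, 3.44 and 18.5 FPKM in WT against 12.9, 24.4 and 22.5 FPKM in Sphk1/2gc-/- cumulus cells (log2 fold change 1.14, 95% interval 0.03 to 2.26, limma adjusted p = 0.123). Fosl2 was at 22.1, 8.27 and 27.2 FPKM against 27.1, 45.5 and 37.0 FPKM (1.01, 95% interval 0.10 to 1.92, limma adjusted p = 0.0998). Both again had WT library 2 lowest. The estimates for the other 4 genes were nearer to 0. Fos was at 136, 224 and 266 FPKM against 217, 261 and 182 FPKM (0.12, 95% interval −0.48 to 0.71), Jun at 2.34, 2.29 and 6.16 FPKM against 2.55, 4.19 and 3.94 FPKM (0.07, 95% interval −0.65 to 0.79) and Nr4a2 at 4.82, 1.38 and 6.26 FPKM against 1.79, 5.80 and 6.18 FPKM (0.15, 95% interval −0.95 to 1.24). Egr1, the only gene below 0, was at 165, 138 and 150 FPKM against 71.9, 150 and 170 FPKM, with Sphk1/2gc-/- library 1 alone at the low end (−0.30, 95% interval −0.99 to 0.39).

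The outcome in cumulus cells turned on 2 libraries. WT library 3, which listed the most genes above 0, lay above Sphk1/2gc-/- library 1 for all 9 genes, whereas WT library 2 lay below all 3 Sphk1/2gc-/- libraries for 7 of the 9 and WT library 1 did so for 6. Without WT library 3, Junb (log2 fold change 2.04, limma adjusted p = 0.0161, range over 15 alternatives 0.0161 to 0.233), Atf3 (1.80, limma adjusted p = 0.0155, range 0.0155 to 0.257) and Nr4a1 (1.69, limma adjusted p = 0.0246, range 0.0246 to 0.329) passed as higher in Sphk1/2gc-/- cumulus cells, 3 of 9 against 4.66% of all genes. Without Sphk1/2gc-/- library 1, Fosb (2.08, limma adjusted p = 0.0379, range 0.0379 to 0.484) and Atf3 (1.60, limma adjusted p = 0.0417) passed, 2 of 9 against 5.28% of all genes. In no other of these 15 alternatives did any of the 9 genes pass.

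Genes of the same families and programme passed in cumulus cells with all libraries in. Fosl1 rose from 2.00, 2.25 and 5.30 FPKM in WT to 14.6, 20.2 and 25.6 FPKM (log2 fold change 2.39, SE 0.311, limma adjusted p = 0.00252). The Fosl1 exons overlap those of Ccdc85b on the other strand, whose reads cannot be told apart without strand. Egr3 rose from 1.97, 1.01 and 2.48 FPKM to 3.55, 8.18 and 9.69 FPKM (1.48, SE 0.336, limma adjusted p = 0.0179). In both genes every Sphk1/2gc-/- library lay above every WT library. They were 1 of 12 tested AP-1 and CREB relatives and 1 of 6 EGR and NR4A relatives and partners. Of all genes, 4.19% passed as higher and 3.85% as lower, so counts this small are no result about the families. Jund (log2 fold change 0.18), Egr2 (0.20), Nr4a3 (−0.05), Nab1 (−0.25) and Nab2 (0.62) did not pass.

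Of 35 other immediate early genes, 10 rose and 0 fell in Sphk1/2gc-/- cumulus cells, against 4.19% and 3.85% of all genes. As this list was chosen with earlier results of these data known, such counts describe it and do not test it. The fold change was above 0 for 33 of the 35, with a median of 0.75. The largest rises were those of Id2, an inhibitor of bHLH factors (77.7, 70.0 and 102 FPKM in WT against 418, 641 and 624 FPKM, log2 fold change 2.73), Trib1, a pseudokinase (1.94), Klf4, a zinc finger factor (1.83), Socs3, a feedback inhibitor of cytokine signalling (1.76), Gadd45a, a growth arrest gene (1.56), and Id1 (1.32). Without WT library 3, 15 of the 35 rose, and 13 did without Sphk1/2gc-/- library 1. Of 13 tested heat shock and stress genes, 2 rose, Hsph1 (log2 fold change 1.45) and Dnajb1 (1.38), and 0 fell, against the same shares of all genes. The fold change was above 0 for 10 of the 13 and below 0 for 3. The summed level of the heat shock and stress genes was 3086 to 3315 FPKM in WT and 3943 to 4339 FPKM in Sphk1/2gc-/- cumulus cells. The summed granulosa markers were 4006 to 5187 against 2751 to 3109 FPKM, with 4 of 10 lower, and leukocyte markers summed to 5.89 to 55.8 against 10.3 to 61.4 FPKM, with 1 higher and 1 lower of 6 tested. The summed oocyte markers were 3.89 to 7.17 against 2.20 to 2.64 FPKM, with all 4 tested below 0, 3 of them without overlap, and 0 passing. Their part in the result was not tested. Of 18 tested targets of the LH receptor 4 rose (Runx1, Ptx3, Tnfaip6 and Vegfa), and Lhcgr and Cyp19a1 fell. The list was not split into genes that hCG raises and genes that it lowers. These directions therefore do not show whether the response to hCG differed. Ptgs2 was at 114, 64.1 and 127 FPKM in WT against 98.3, 75.6 and 115 FPKM. Among 20 tested kinases and factors upstream of these genes, 0 rose and 1, Prkar2b (a regulatory subunit of protein kinase A), fell (limma adjusted p = 0.00107).

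**Figure D5:**
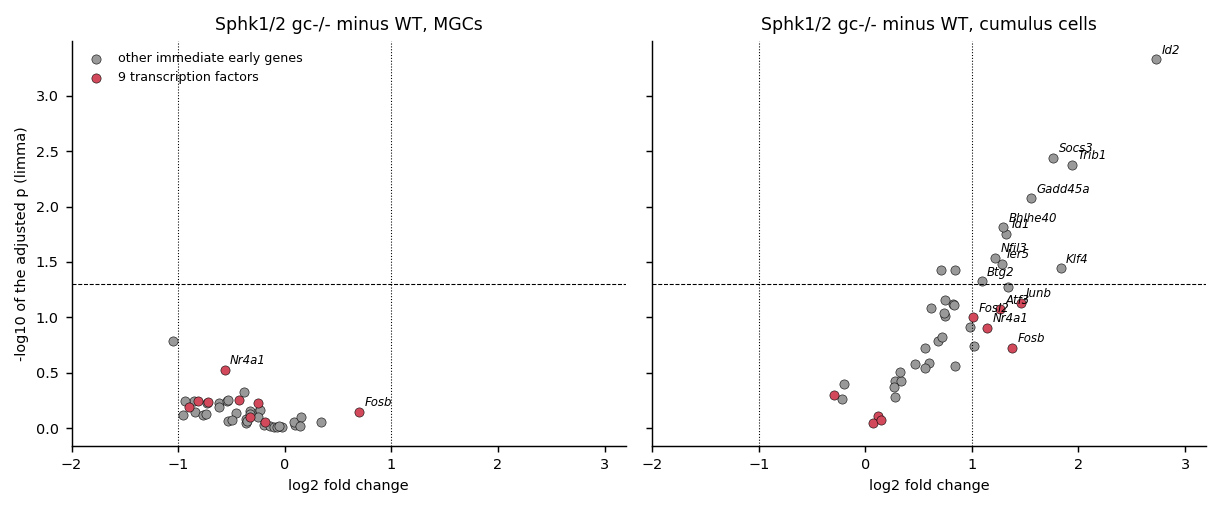
Log2 fold change (Sphk1/2gc-/- minus WT) against −log10 of limma's adjusted p in MGCs (left) and cumulus cells (right), for the 9 transcription factors (red) and 35 other immediate early genes (grey); the dashed line is an adjusted p of 0.05 and the dotted lines are a fold change of 2. In cumulus cells 10 grey points and no red point pass both limits, and in MGCs none does.

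In MGCs, 0 of the 9 genes passed in either direction, where 0.0393% of all 15279 genes did (0.00654% higher and 0.0327% lower, 6 genes in all), and 1 of the 9 had an unadjusted p of 0.05 or less, against 9.20% of all genes. As libraries of the same number deviated together in MGCs, the number was also fitted as a block, with which 4 of the 9 did (Atf3, Nr4a2, Nr4a1 and Junb), against 10.9% of all genes, and 0 passed. The log2 fold change was below 0 for 8 of the 9, with a median of −0.43 against −0.0034 for all genes. The groups did not overlap for 4 of the 9, Nr4a1, Junb, Egr1 and Fosl2, all lower in Sphk1/2gc-/- MGCs. Of all genes, 9.17% were separated as lower and 7.72% as higher. Library 3 of the Sphk1/2gc-/- group was the lowest of the 6 MGC libraries for 8 of the 9 genes. Without it the fold change was above 0 for 2 of the 9, with a median of −0.28.

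Nr4a1 was the most steadily separated, at 660, 669 and 645 FPKM in WT against 484, 453 and 400 FPKM in Sphk1/2gc-/- MGCs. Its log2 fold change was −0.56 (95% interval −0.90 to −0.23, limma adjusted p = 0.296), and it was lower in all 3 libraries. Egr1 was at 471, 468 and 509 FPKM against 453, 349 and 292 FPKM (−0.43, 95% interval −0.88 to 0.02), with library 1 of the Sphk1/2gc-/- group close to WT. Junb was at 356, 374 and 314 FPKM against 288, 251 and 105 FPKM (−0.81, 95% interval −1.69 to 0.06), and Fosl2 at 119, 121 and 129 FPKM against 115, 102 and 93.5 FPKM (−0.25, 95% interval −0.55 to 0.05). The separation of Fosl2 was by a few FPKM.

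The other 5 genes overlapped between the genotypes in MGCs. Atf3 was at 16.9, 16.3 and 6.99 FPKM in WT against 8.41, 10.4 and 2.54 FPKM in Sphk1/2gc-/- mice (log2 fold change −0.90, 95% interval −2.10 to 0.30), and Nr4a2 at 15.8, 13.0 and 6.53 FPKM against 7.51, 7.62 and 4.43 FPKM (−0.72, 95% interval −1.52 to 0.08). In both genes library 3 was the lowest in each genotype, and the Sphk1/2gc-/- library was below the WT library of its number in 3 of 3 pairs. With the replicate block the 95% interval was −1.33 to −0.47 for Atf3 (limma adjusted p = 0.205, range over 16 alternatives 0.0208 to 0.999) and −1.13 to −0.30 for Nr4a2 (limma adjusted p = 0.260, range 0.0160 to 0.999). Jun was at 114, 129 and 172 FPKM against 145, 128 and 69.3 FPKM (−0.32, 95% interval −1.04 to 0.39), and Fos at 102, 130 and 138 FPKM against 134, 126 and 74.8 FPKM (−0.18, 95% interval −0.77 to 0.41). Fosb was the only gene above 0, at 17.2, 19.1 and 50.6 FPKM against 68.6, 39.4 and 27.6 FPKM (0.70, 95% interval −0.43 to 1.83). Over libraries 1 and 2 of each genotype, Fosb passed as higher (1.47, limma adjusted p = 0.0309, range over 16 alternatives 0.0309 to 0.999), and Fos (0.16) and Jun (0.17) were above 0. In those libraries Nr4a1 (−0.50, limma adjusted p = 0.0173), Nr4a2 (−0.84, limma adjusted p = 0.0160), Atf3 (−0.76, limma adjusted p = 0.0208) and Junb (−0.44, limma adjusted p = 0.0382) were under the p limit but short of the fold limit, and their adjusted p reached 0.999 in another alternative. Of the 35 other immediate early genes 0 passed in MGCs and 30 were below 0 (median −0.36). Without Sphk1/2gc-/- library 3, 17 of the 35 were above 0 (median −0.05). The summed leukocyte markers were 175 to 333 FPKM in WT and 32.1 to 243 FPKM in Sphk1/2gc-/- MGCs. Of these 10 markers Cd74 was separated as higher and S100a8 and S100a9 as lower, and 0 passed. Of all genes, 7.72% were separated as higher and 9.17% as lower. The summed endothelial markers were 12.8 to 16.6 and 7.99 to 9.80 FPKM (all 6 tested lower without overlap, median log2 fold change −0.42, 0 passing). The summed LH targets were 5817 to 6417 and 1675 to 7827 FPKM, and the summed heat shock genes 1651 to 2051 and 2213 to 2394 FPKM. Their part in these values was not tested.

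Whether the genotype acted differently in the cell types was tested as an interaction over all 12 libraries (the cumulus fold change minus the MGC fold change, at a limma adjusted p of at most 0.05, with no fold limit). It passed for 0 of the 9 genes, against 3.93% of all genes (2.45% higher and 1.48% lower). The difference was above 0 for all 9, with a median of 0.86 against −0.03 for all genes, and 4 genes had an unadjusted p of 0.05 or less, against 22.1%. These 4 were Junb (log2 difference 2.27, 95% interval 0.72 to 3.82, limma adjusted p = 0.0910), Atf3 (2.16, 95% interval 0.50 to 3.83, limma adjusted p = 0.128), Nr4a1 (1.71, 95% interval 0.45 to 2.97, limma adjusted p = 0.114) and Fosl2 (1.27, 95% interval 0.24 to 2.30, limma adjusted p = 0.145). The difference was 0.86 for Nr4a2, 0.68 for Fosb, 0.39 for Jun, 0.30 for Fos and 0.13 for Egr1. Without WT cumulus library 3, Junb (2.85, limma adjusted p = 0.0350, range over 21 alternatives 0.0350 to 0.194) and Nr4a1 (2.25, limma adjusted p = 0.0240, range 0.0240 to 0.234) passed. Without library 3 of both genotypes in MGCs, 5 of the 9 differences were above 0. Fosl1, which overlaps Ccdc85b, passed with all libraries in (2.45, limma adjusted p = 0.0328). Among the other immediate early genes, so did Id2 (3.50, limma adjusted p = 0.0294) and Gadd45a (2.29, limma adjusted p = 0.0320). The difference was above 0 for all 35 of those genes.

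The genes with the profile most like each of the 9 were sought among 6710 genes with a mean of 5 FPKM or more, by the root mean square difference of log2(FPKM + 1) over the 12 libraries after each gene was centred on its mean. Nr4a1 was closest to Sik1 (0.34), a salt-inducible kinase that restrains CREB coactivators, then to Rhob (0.46) and Slc7a8 (0.47). Jun was closest to St6gal1 (0.24), Rhob (0.27) and Egln3 (0.30), so that Rhob, a small GTPase, stood near both. Junb was closest to its fellow immediate early gene Egr3 (0.41), then to Gm15971 (0.43) and Spry2 (0.44). Atf3 was closest to Klf4 (0.33), Cpeb2 (0.40) and Cd24a (0.40). For Egr1 these were Zeb2 (0.23), Luc7l2 (0.25) and Slc30a1 (0.25), for Fosl2 Bag3 (0.30), Klf3 (0.32) and Lamb1 (0.32), and for Fos Tgif1 (0.25), Napa (0.25) and Med11 (0.26). Nr4a2 was closest to Rnf217 (0.37), BC005537 (0.42) and Chp1 (0.43). Fosb had no close profile, with Clic4 (0.68), Socs1 (0.70) and Pmepa1 (0.71) the nearest. Among the 9 genes themselves, the pair nearest to each other was Nr4a2 and Atf3 (0.55), followed by Jun and Nr4a1 (0.57) and by Egr1 and Nr4a2 (0.57).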

How the data were processed

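RNA of MGCs and cumulus cells was sequenced at 2 h post-hCG, 12 libraries in all, and 0 columns were left unused. The authors deposited FPKM, 1 table per cell type, with HISAT2 and GRCm38 named in the submitters' processing notes; the counting tool, annotation, strand setting and versions are not given in the sources used here. The unit was inferred from the values. FPKM times the exon length of GENCODE M21 gave whole reads for 90.6% to 92.1% of values (tolerance 0.02 reads), and from these the depth (16100363 to 19761604 reads per library). That precision covers counting error only. Reads of overlapping genes cannot be told apart without strand.

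The 9 genes and all lists of genes were chosen with earlier results of these data known. Ensembl IDs were named from GENCODE M21 (64 and 66 genes without a symbol). Testing used limma 3.58.1 in R 4.3.3 (eBayes with trend) on log2(FPKM + 1), and a gene entered a fit if any of its groups averaged 0.5 FPKM or more. Genotypes were compared within 6 libraries per cell type, and cell types and the interaction within all 12 libraries over the 26382 genes in both tables. A gene passed if its p after Benjamini-Hochberg adjustment was at most 0.05 and its log2 change at least 1 in size, with no limit on size for the interaction. The log2(FPKM + 1) scale understates changes of low genes. The named genes were the 9, their relatives Fosl1, Jund, Egr2, Egr3, Nr4a3, Nab1 and Nab2, Ptgs2, Star, Sphk1 and Sphk2, genes of the lists that passed (the 6 largest if more did), and the 3 genes closest in profile to each of the 9; markers and library values beyond these were chosen after their values were seen. The code was tested on simulated data. Libraries of the same number in MGCs deviated together from the genotype means (correlations 0.220, 0.158 and 0.224), and the labels name no shared animal; in cumulus cells the values were −0.148, −0.0511 and 0.115. The number was therefore also used as a block.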

Additional observations from a re-analysis of the deposited data

How the results depend on the processing

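The results were recomputed with a pseudocount of 0.1, with no filter and a filter of 2 FPKM, with median centring, quantile normalization, the replicate block, a removal of the G + C trend alone and with the block (both chosen after seeing the data), and without each library. Median centring lowered the number of the 9 genes passing between MGCs and cumulus cells from 8 to 5 in WT and from 6 to 3 in Sphk1/2gc-/-, and turned Nr4a2 in the latter to −0.30, as quantile normalization did to −0.19. Without single libraries these counts were 6 to 8 and 5 to 7, those for the genotypes 0 to 3 in cumulus cells and 0 in MGCs, and that for the interaction 0 to 2. Libraries 1 and 2 of each genotype gave 1 in MGCs, with Fos at 0.16 and Jun at 0.17.

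Directions of small estimates turned without single libraries. In cumulus cells Egr1 ranged from −0.53 to 0.083, Fos from −0.16 to 0.32, Jun from −0.12 to 0.44 and Nr4a2 from −0.34 to 0.59, in MGCs Fos from −0.33 to 0.080, between Sphk1/2gc-/- MGCs and cumulus cells Atf3 from −0.56 to 0.29, and in the interaction Egr1 from −0.10 to 0.51. Removal of the G + C trend, with or without the block, gave −0.0071 for Jun in cumulus cells. Without library 3 of both genotypes in MGCs the interaction was −0.057 for Egr1, −0.047 for Fos, −0.10 for Fosb and −0.10 for Jun. The causes were not tested.

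Counts over all genes moved more. In cumulus cells 981 genes passed, and 1674 with a pseudocount of 0.1. In MGCs 6 passed, 1 with no filter, with the filter of 2 FPKM, with median centring and with quantile normalization, 3 with the replicate block, 18 with the G + C trend removed, 117 in a fit of all 12 libraries, 477 over libraries 1 and 2, and 0 to 170 without single libraries. For the interaction 624 passed, 327 with no filter, 56 with the replicate block, 57 with the block and the G + C trend removed, 2474 without library 3 of both genotypes in MGCs, and 108 to 1189 without single libraries. The replicate block changed the call of none of the 9 genes in any comparison, and in MGCs moved the number with an unadjusted p of 0.05 or less from 1 to 4. Removal of the G + C trend lowered the log2 FOS to JUN ratio of cumulus cells over MGCs from 4.40 to 3.59 in WT and from 2.90 to 2.21 in Sphk1/2gc-/-.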
